A study of Mus musculus with 10 samples.

Results

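T follicular helper cells are the CD4+ T cells that enter B cell follicles and sustain the germinal center. They present CD40 ligand and secrete interleukin 21 to germinal center B cells, and they are known for high surface PD-1 and ICOS, for the transcription factors TCF-1 and BCL6 and for the adaptor SAP, which keeps their contacts with B cells stable. The samples described here were sorted as B cells. The transcripts of 9 genes of this program were followed, Pdcd1, Icos, Il21, Tcf7, Tox2, Sh2d1a, Cd4, Cd28 and Ctla4, out of 22380 quantified genes. They were selected on their levels in these same libraries, because Pdcd1 and others were higher in ZBTB38 WT and lowest in ZBTB38 HET libraries. Their differences between genotypes are therefore given as a description, and where counts of called members appear, they stand beside the share of all genes called and nothing is read from them.

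The RNA came from antigen-specific (NP-binding) GL7+IgD- germinal center B cells of mouse spleen, sorted 2 weeks after immunization with NP-OVA in alhydrogel. ZBTB38 WT mice (n = 2 libraries) were Zbtb38 fl/fl without Cre, ZBTB38 HET mice (n = 2) were Zbtb38 fl/+ x Vav-Cre, and ZBTB38 KO mice (n = 6) were Zbtb38 fl/fl x Vav-Cre, all of strain C57Bl6/N, with no age given. The floxed line was made in C57Bl6/J zygotes and came from a single founder, and WT mice differed from HET and KO mice in carrying no Cre. Vav-Cre is active primarily in hematopoietic cells, which include T as well as B cells, and deletion in T cells was not measured here. The labels do not tie replicate numbers to separate litters or days, and the values below measure the spread between these libraries.

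The libraries held between 26612431 and 41059082 estimated counts. CPM here is a gene's estimated count scaled by edgeR to a library size that TMM has normalized, and TPM is the length-normalized level that Salmon gives, used where genes are compared with each other. Zbtb38, the targeted gene, was at 152 to 164 CPM in WT, 106 to 117 in HET and 18.5 to 50.1 in KO libraries. These values are sums over the whole gene. For the floxed exon, which holds the coding sequence, the paper reports a complete loss of transcripts in KO mice. The B cell genes were high in every library (Ms4a1, which encodes CD20, between 2154 and 2985 CPM), and no germinal center B cell gene of a list of 10 was at 0. Transcripts of the Y-linked genes Ddx3y, Eif2s3y, Kdm5d and Uty summed to 207 to 280 CPM in 5 libraries, which were both WT libraries and KO replicates 1, 2 and 5. They summed to 1.99 to 7.01 CPM in the other 5, which were both HET libraries and KO replicates 3, 4 and 6. In WT against HET, genotype and the presence of Y-linked transcripts therefore cannot be told apart. Both HET libraries also had 0 counts of Hnrnpll, which codes for an RNA-binding splicing factor, against 149 and 202 counts in WT and 54 to 166 in KO libraries.

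In the Gencode annotation of GRCm38, 4 of the 9 genes lie on chromosome 1. Cd28 (chr1:60716800-60773359), Ctla4 (chr1:60887000-60915832) and Icos (chr1:60977927-61000320) are neighbors on the plus strand, and Pdcd1 (chr1:94038305-94052553) is on the minus strand. The others are Tox2 (chr2:163203125-163324170, plus strand), Il21 (chr3:37222759-37232636, minus), Cd4 (chr6:124864692-124888221, minus), Tcf7 (chr11:52252371-52283014, minus) and Sh2d1a (chrX:42502453-42529330, plus). RefSeq promoter windows of 300 bases, from 250 before to 50 after the gene start, were held for 5 of the 9 genes, and where a gene had several, the window nearest to the start of its most abundant transcript was taken. The windows of Pdcd1, the gene that leads the group, of the cytokine gene Il21 and of Tox2, the only member that was higher in both HET than in both WT libraries, are printed 5' to 3' on the strand of the gene (GRCm38.p6). Capitals mark CTTTG, the core of the motif bound by TCF-1 and LEF-1, on either strand (CAAAG).
Pdcd1, chr1:94052504-94052803, minus strand: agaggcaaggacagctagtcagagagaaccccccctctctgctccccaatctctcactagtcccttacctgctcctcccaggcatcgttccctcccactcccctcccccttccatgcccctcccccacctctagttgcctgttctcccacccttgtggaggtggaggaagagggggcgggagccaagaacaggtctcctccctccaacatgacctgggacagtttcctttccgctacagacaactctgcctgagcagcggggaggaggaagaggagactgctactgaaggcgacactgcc
Il21, chr3:37232587-37232886, minus strand: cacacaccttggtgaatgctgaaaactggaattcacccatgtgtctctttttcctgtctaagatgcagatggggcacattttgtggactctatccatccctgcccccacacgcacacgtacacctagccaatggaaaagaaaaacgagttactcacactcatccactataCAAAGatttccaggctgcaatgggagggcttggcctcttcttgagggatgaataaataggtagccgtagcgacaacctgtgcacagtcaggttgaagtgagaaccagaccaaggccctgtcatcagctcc
Tox2, chr2:163202877-163203176, plus strand: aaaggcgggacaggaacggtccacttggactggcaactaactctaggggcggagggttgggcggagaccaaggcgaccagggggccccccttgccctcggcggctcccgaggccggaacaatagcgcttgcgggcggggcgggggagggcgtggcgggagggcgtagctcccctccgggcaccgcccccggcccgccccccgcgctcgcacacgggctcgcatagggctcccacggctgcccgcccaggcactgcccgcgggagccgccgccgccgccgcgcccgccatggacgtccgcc
The Il21 window held the motif at 1 place, 80 bases before the start, and the Ctla4 window held it at 1 place, while the windows of Pdcd1, Tox2 and Tcf7 held none. Of 32851 promoter windows of the same length, 53.9% held it at least once, so the letters alone do not set any of these genes apart. The windows differed more in base composition. The Tox2 window was 77.0% G and C with 38 CpG dinucleotides, above 97.6% of all windows in G and C content. The Tcf7 window was next, at 64.3% with 17 CpG dinucleotides, above 80.4% of all windows. Those of Pdcd1 (60.7%), Il21 (49.0%) and Ctla4 (42.0%) lay nearer to the median of 52.7% and held 5, 5 and 8 CpG dinucleotides. TGANTCA, the AP-1 motif, and TTCNNNGAA, a motif of BCL6 and STAT factors, were in none of these 5 windows and in 7.81% and 8.3% of all windows.

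Compared per length, the 9 transcripts covered a wide range of low to moderate levels. In WT libraries, the mean TPM was highest for Tcf7 (27.5 ± 7.06, SD, n = 2) and Tox2 (24.0 ± 1.23), followed by Pdcd1 (11.7 ± 3.16), Sh2d1a (9.13 ± 0.912), Cd4 (8.03 ± 1.49), Icos (6.84 ± 2.26), Cd28 (3.37 ± 0.594), Ctla4 (2.59 ± 1.06) and Il21 (0.687 ± 0.195). Tcf7 and Tox2 overlapped between the libraries, as did each neighboring pair from Pdcd1 to Icos and the pair of Cd28 and Ctla4. The steps from Tox2 to Pdcd1, from Icos to Cd28 and from Ctla4 to Il21 were larger than the spread of both libraries. In HET libraries Tox2 was first at 43.3 ± 3.01 TPM and did not overlap with the next gene, Cd4, at 3.39 ± 0.347 TPM, and the other 7 genes were below Cd4. In KO libraries Tox2 was again first at 28.4 ± 13.9 TPM (n = 6), and every neighboring pair of the 9 genes overlapped between libraries. Over all 10 libraries, mean TPM placed the members between the percentiles of 43.3 for Il21 and 79.3 for Tox2 among all quantified genes.

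**Figure D1:**
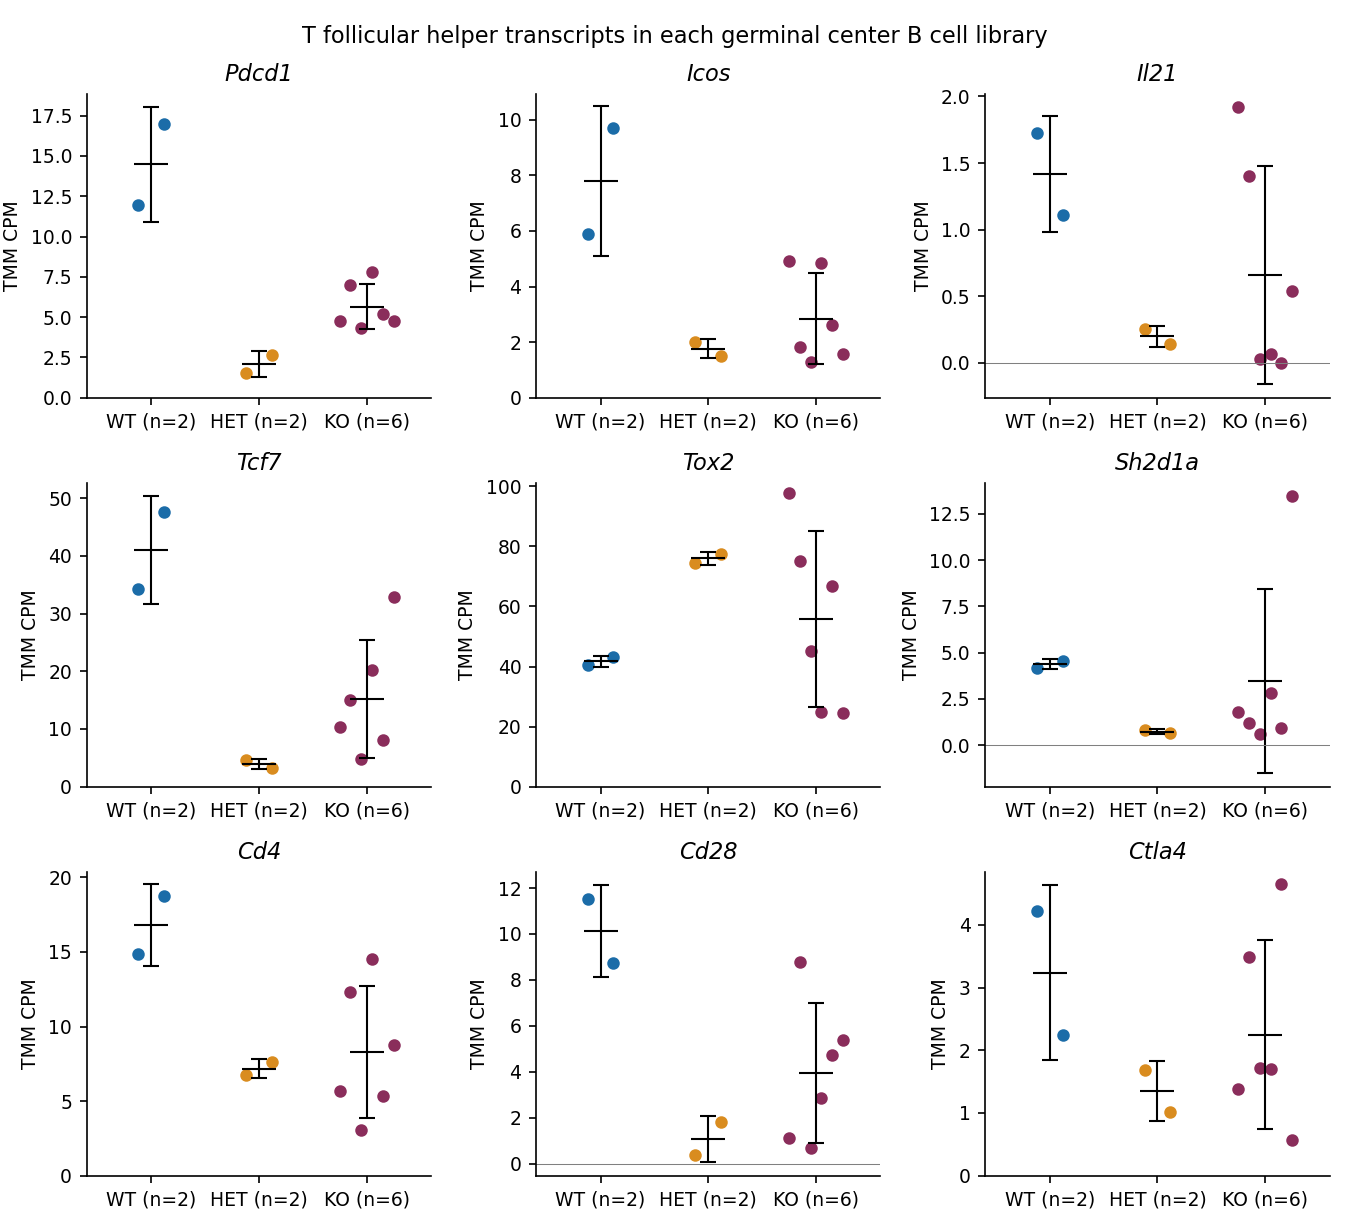
Levels of the 9 transcripts in TMM CPM (y axis, linear, each panel with its own scale) by genotype (x axis). Each point is a library, the horizontal line the mean and the bar the SD. Pdcd1, Icos, Tcf7 and Cd4 are higher in both WT libraries than in any other library, HET libraries are below both WT libraries for 8 of 9 genes, and Tox2 is higher in HET than in WT.

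Among the surface receptors, Pdcd1, which encodes the inhibitory receptor PD-1, separated the genotypes completely. It was at 12.0 and 17.0 CPM in WT libraries, at 1.53 and 2.67 CPM in HET libraries, and at 4.74, 7.00, 4.35, 7.80, 5.22 and 4.78 CPM in KO replicates 1 to 6. The 3 ranges did not overlap, and the mean in WT was 2.56-fold that in KO and 6.90-fold that in HET. These values rest on 491 and 493 counts in WT, 48 and 74 in HET and 131 to 247 in KO libraries, all from 1 annotated transcript. The KO values were 4.74, 7.00 and 5.22 CPM in libraries with Y-linked transcripts and 4.35, 7.80 and 4.78 CPM in those without. Because the 3 ranges did not overlap, the order of genotypes within either subset was fixed and adds no separate support.

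Icos encodes the costimulatory receptor that binds ICOS ligand on B cells. It was at 5.88 and 9.69 CPM in WT, 2.01 and 1.52 CPM in HET, and 4.92, 1.83, 1.27, 4.83, 2.63 and 1.58 CPM in KO replicates 1 to 6. Both WT libraries were above all others, and HET libraries lay inside the KO range. Cd4, the coreceptor of helper T cells, was at 14.9 and 18.8 CPM in WT, 6.75 and 7.62 CPM in HET, and 5.68, 12.3, 3.05, 14.6, 5.32 and 8.76 CPM in KO libraries. The gap between the lower WT library and KO replicate 4 was narrow for Cd4, and again the HET libraries lay inside the KO range.

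Cd28 and Ctla4 encode the activating and the inhibitory receptor for CD80 and CD86. Cd28 was at 11.5 and 8.72 CPM in WT and at 0.382 and 1.81 CPM in HET libraries, the second widest ratio of means between these genotypes in the group, at 9.26-fold. In KO libraries it was spread 12.9-fold between 0.682 and 8.80 CPM, so that KO replicate 2 lay inside the WT range. Ctla4 was at 4.23 and 2.25 CPM in WT, 1.69 and 1.01 CPM in HET and between 0.568 and 4.65 CPM in KO libraries with a median of 1.71. Both WT libraries were above both HET libraries for Ctla4, and the KO libraries covered the whole range of WT and HET.

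Il21, the cytokine that T follicular helper cells provide to germinal center B cells, was the least abundant of the group. It was at 1.72 and 1.11 CPM in WT and at 0.255 and 0.144 CPM in HET, which stood for 7.70 and 4.06 estimated counts. In KO libraries it was at 1.92 and 1.40 CPM in replicates 1 and 2 and at 0.0325, 0.0632, 0 and 0.538 CPM in replicates 3 to 6. The count of 0 in KO replicate 5 allows up to 3 counts, or 0.101 CPM, and covers counting error only. KO libraries thus held both the highest and the lowest Il21 level of the series.

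Tcf7 encodes TCF-1, a transcription factor of naive, memory and follicular helper T cells. It was at 34.3 and 47.6 CPM in WT, at 4.55 and 3.29 CPM in HET, and at 10.3, 15.0, 4.71, 20.2, 8.08 and 32.9 CPM in KO replicates 1 to 6. The 3 genotypes did not overlap, although KO replicate 6 came close to the lower WT library and KO replicate 3 close to the higher HET library. The ratio of means between WT and HET was 10.5, the widest of the 9 genes, and that between WT and KO was 2.69.

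Tox2, which encodes an HMG-box transcription factor of the TOX family, had another order of genotypes than the other 8 genes. It was at 40.5 and 43.1 CPM in WT and at 74.4 and 77.6 CPM in HET, so HET libraries were higher. KO replicates 1 to 6 were at 97.6, 75.0, 45.2, 25.0, 66.9 and 24.7 CPM, covering the range of both other genotypes. Across the 10 libraries, the log2 level of Tox2 had a Pearson r between -0.72 (Sh2d1a) and -0.17 (Icos) with 6 members, among them -0.42 with Pdcd1, of 0.21 with Il21 and 0.21 with Ctla4, and of 0.86 with Mef2b (a transcription factor of germinal center B cells), 0.84 with S1pr2 and 0.83 with Gcsam, all genes of the germinal center B cell list. The same 3 values over the 6 KO libraries alone were 0.91, 0.85 and 0.83, with 0.58 for Il21 and 0.55 for Ctla4. These correlations are a description of libraries that share preparation and differ in depth. Because its order of genotypes differed, Tox2 is left out of the summed level of the members.

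**Figure D2:**
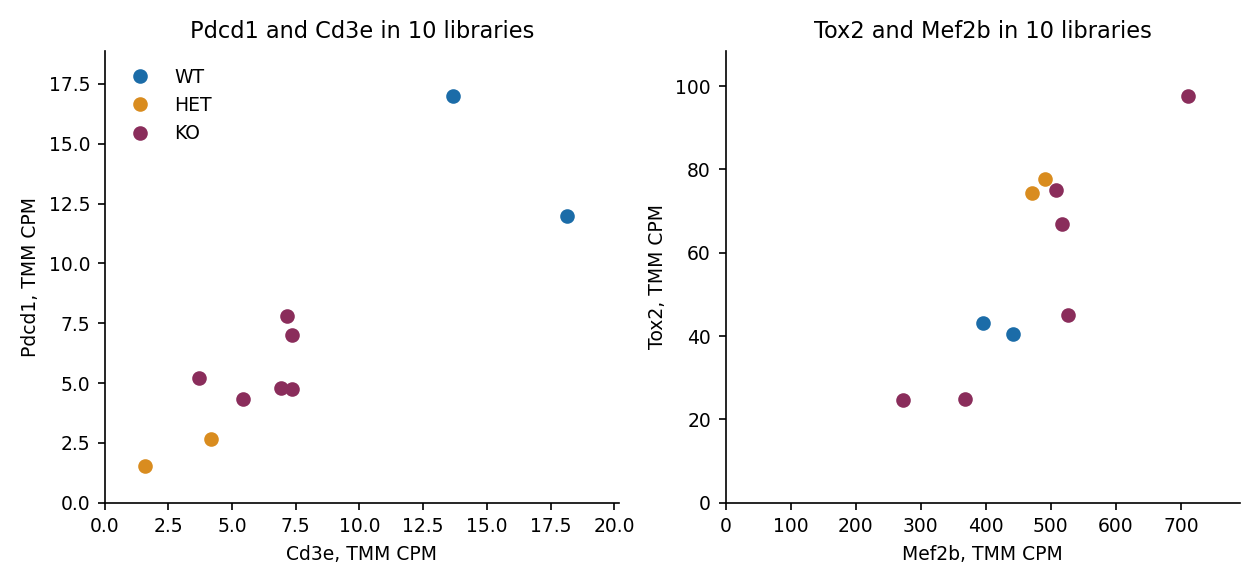
Pdcd1 against Cd3e (left) and Tox2 against Mef2b (right) in TMM CPM on linear axes, each point a library colored by genotype. Pdcd1 is highest in the 2 WT libraries, where Cd3e is also highest (13.7 and 18.2 CPM), and Tox2 is lowest in the 2 KO libraries where Mef2b is lowest (273 and 368 CPM).

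Sh2d1a encodes SAP, the adaptor that binds SLAM family receptors. It was at 4.20 and 4.57 CPM in WT, at 0.828 and 0.650 CPM in HET, and at 1.77, 1.22, 0.617, 2.81, 0.910 and 13.4 CPM in KO replicates 1 to 6. KO replicate 6 was above both WT libraries, while the other 5 KO libraries were below them. The same library also differed in the form of the transcript. The forms ENSMUST00000005839.10 and ENSMUST00000115070.7 have coding sequences of 381 and 372 bases. They differ by 9 bases, so the reading frame is kept, and the shorter form is shown because almost all of its counts came from 1 library. The stretch around the difference is printed from the GRCm38 transcripts, with capitals for bases 131 to 139 of the longer coding sequence, which the shorter one lacks.
ENSMUST00000005839.10: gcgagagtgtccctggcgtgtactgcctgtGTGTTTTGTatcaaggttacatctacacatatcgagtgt
ENSMUST00000115070.7: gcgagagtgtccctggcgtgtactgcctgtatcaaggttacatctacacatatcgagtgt
The shorter form was given 196 estimated counts (43.5% of the gene) in KO replicate 6 and 5.80 counts in KO replicate 3, and 0 in the other 8 libraries. Without KO replicate 6, the fitted log2 difference of Sh2d1a between WT and KO was 1.57, against 0.32 with it.

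Most other members were carried by a single form. Pdcd1, Cd4 and Cd28 have 1 quantified transcript, and only 1 of 2 had counts for Il21 and for Ctla4. For Icos, ENSMUST00000102827.3 took 76.0 to 79.3% of counts in WT, 64.8 to 78.4% in HET and 49.4 to 91.7% in KO libraries. For Tcf7, ENSMUST00000086844.9 took 79.9 to 81.3% in WT, 86.4 to 86.8% in HET and 68.1 to 88.0% in KO libraries. Tox2 came mostly from ENSMUST00000109428.8, which took 82.6 to 90.4% over all libraries. The forms of Icos were about equal in the KO library with the lowest share, and otherwise the leading form of these 3 genes was the same in every library.

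All 9 genes passed the filter on low counts in each of the 4 fits across all genes. Both WT libraries were above both HET libraries for 8 of 9 members, all but Tox2, and this was so for 25.4% of the 14354 genes tested. Both WT libraries were above all 6 KO libraries for 4 members (Pdcd1, Icos, Tcf7 and Cd4), against 4.17% of all genes, and every KO library was above both HET libraries for Pdcd1 and Tcf7, against 5.82%. The mean was highest in WT and lowest in HET for 8 members, against 22.1% of all genes. Since the members were selected on these differences, nothing is read from their counts.

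**Figure D3:**
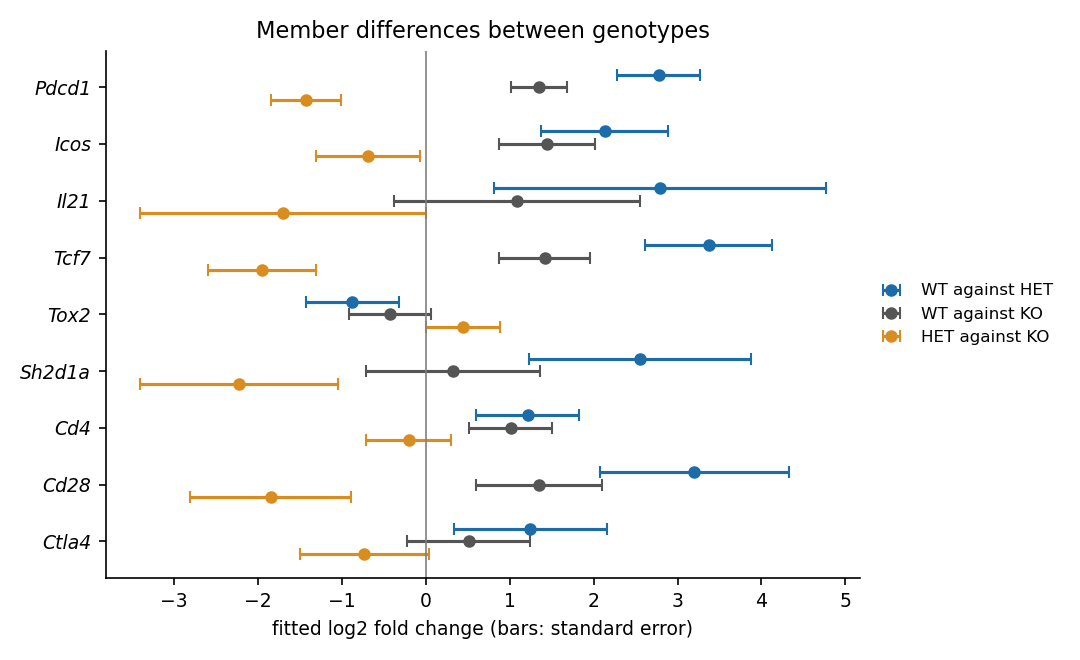
Fitted log2 fold changes of the 9 members (x axis) from edgeR for WT against HET (blue), WT against KO (gray) and HET against KO (orange), with bars of 1 standard error. All members except Tox2 lie to the right of 0 for WT against HET and WT against KO and to the left of 0 for HET against KO, and Tox2 lies on the opposite side in each.

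For WT against KO the fitted log2 differences were 1.35 for Pdcd1 (standard error 0.336), 1.44 for Icos (0.575), 1.42 for Tcf7 (0.543), 1.35 for Cd28 (0.746), 1.09 for Il21 (1.47), 1.01 for Cd4 (0.495), 0.51 for Ctla4 (0.732), 0.32 for Sh2d1a (1.03) and -0.43 for Tox2 (0.489). Their median was 1.09, beside -0.01 over all genes tested. For WT against HET they ran from -0.87 for Tox2 to 3.37 for Tcf7 (standard error 0.758), with 3.20 for Cd28 (1.13) and 2.77 for Pdcd1 (0.491), and the median was 2.55, beside 0.01 over all genes. For HET against KO the median was -1.43, beside -0.07 over all genes, and Sh2d1a, Tcf7 and Cd28 had the most negative values, at -2.23, -1.95 and -1.85. With WT and HET pooled against KO the median was 0.50, beside -0.02. The pooled control group joins the genotypes with the highest and the lowest mean of 8 members, and the 3 comparisons with KO share the KO libraries.

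At an adjusted p under 0.1 in edgeR's quasi-likelihood test, 0 of 9 members were called in any of the 4 comparisons. The background was 0.00704% of genes for WT against KO (1 gene, Zbtb38), 0.00749% for WT plus HET against KO (Zbtb38), 0.00697% for HET against KO (1 gene, Hnrnpll) and 0.00697% for WT against HET (Hnrnpll). At an unadjusted p under 0.05 the members counted were 3 for WT against KO (background 2.19%), 0 for WT plus HET against KO (6.3%), 2 for HET against KO (10.2%) and 4 for WT against HET (6.42%). DESeq2 called 0 members for WT against KO (background 0.0425%) and 0 for WT plus HET against KO (0.135%), and it called Pdcd1 and Tcf7 for HET against KO (3.2%) and for WT against HET (0.875%). A fit of only the 4 WT and HET libraries called 523 of 13220 genes tested, 7 members among them, where the fit of all 10 called 1. The members were selected on such differences, so nothing is read from this count. Without KO replicate 6 the fit of all genotypes called 16 of 14245 genes tested, of which Pdcd1 was a member.

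The genes of the T cell receptor and its signaling, a list of 16, had a similar order of genotypes. Of these genes 15 were above both HET libraries in both WT libraries, 8 were above all KO libraries in both WT libraries, and 5 were above both HET libraries in every KO library, beside the background shares of 25.4%, 4.17% and 5.82%. The median log2 difference of the list was 1.01 for WT against KO, -1.21 for HET against KO and 2.45 for WT against HET. The edgeR test called none of them in any comparison, with 7, 10 and 11 at an unadjusted p under 0.05, while DESeq2 called 0, 5 and 7. Trac, the constant region of the T cell receptor alpha chain, was at 20.7 and 25.2 CPM in WT, at 2.74 and 4.77 CPM in HET and at 5.07 to 15.5 CPM in KO libraries. No gene of the 16 was at 0 in any library. Their summed level was 462 and 487 CPM in WT, 256 and 272 in HET and 307 to 432 in KO libraries. Lck and Cd2, which are also expressed outside T cells, made up 57.7 to 88.8% of that sum, and Lck was at 162 and 168 CPM in WT and 164 and 171 CPM in HET. Without these 2 genes the sum was 189 and 195 CPM in WT, 28.7 and 41.9 in HET and 51.8 to 152 in KO libraries. The 8 members without Tox2 summed to 88.7 and 109.7 CPM in WT, 18.0 and 18.7 in HET and 16.4 to 68.0 in KO libraries. In bulk samples such as these, fewer cells of a type and less RNA per cell cannot be told apart.

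**Figure D4:**
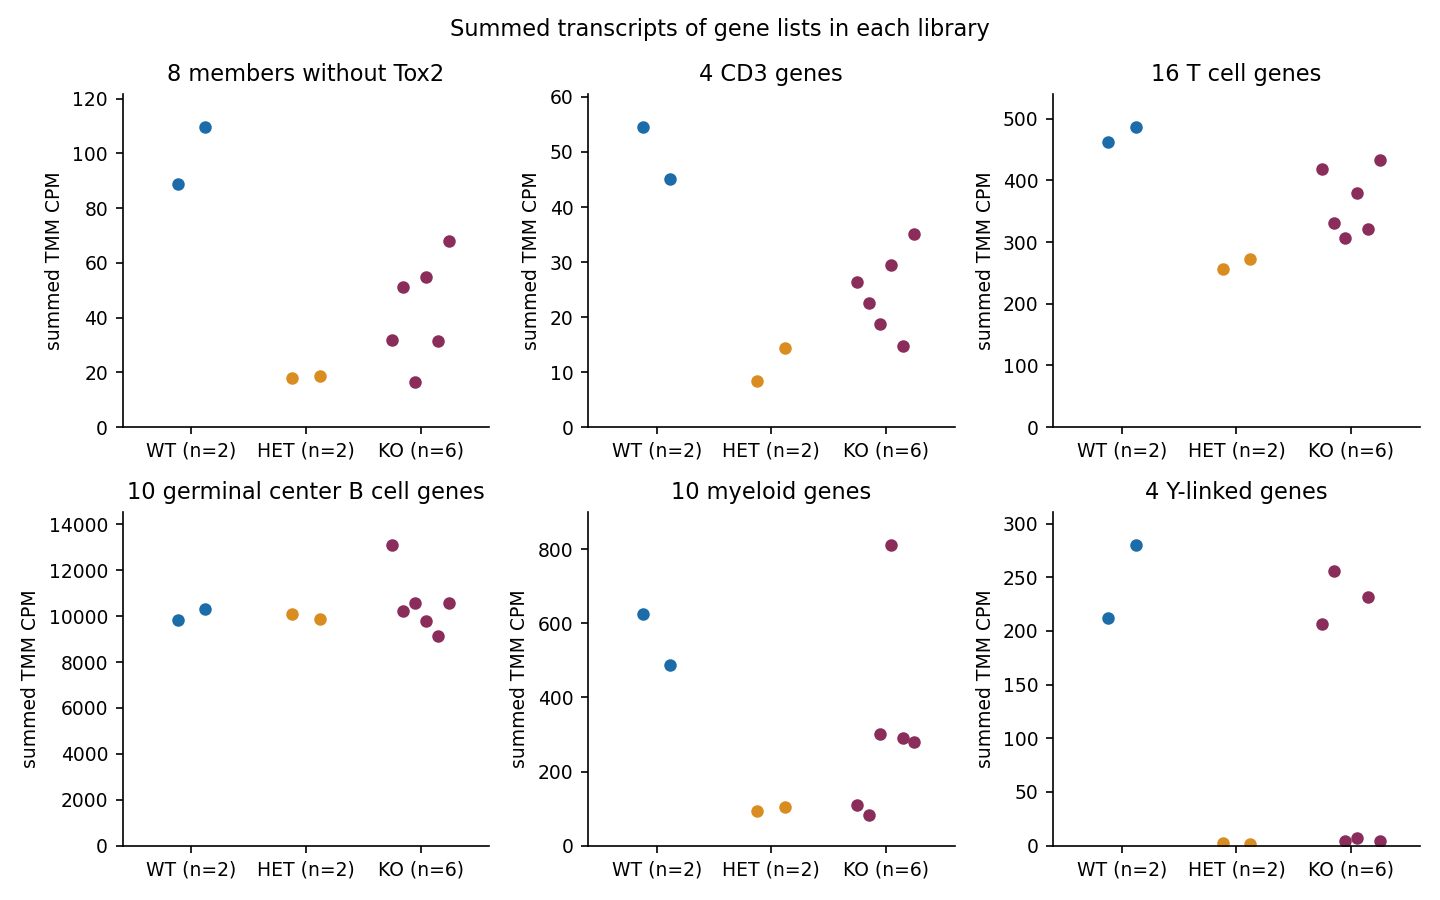
Summed TMM CPM of 6 groups of genes (y axis, linear from 0) in each library by genotype (x axis), each point a library. The CD3 genes follow the order of the 8 members (45.1 and 54.6 CPM in WT, 8.34 and 14.3 in HET), the germinal center B cell genes stay between 9159 and 13088 CPM, and the myeloid and Y-linked genes also differ between WT and HET.

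The members were then set against the T cell content of the same library, as a percent of the summed CPM of the 4 CD3 genes Cd3e, Cd3d, Cd3g and Cd247. On this scale Pdcd1 was at 21.9 and 37.7% in WT, at 18.3 and 18.7% in HET and at 13.6 to 35.5% in KO libraries. Where Pdcd1 in CPM separated WT from KO, its share of CD3 overlapped. WT and KO overlapped for all 9 members, while both WT libraries were above all KO libraries for 0.23% of the 14354 genes tested and below them for 46.5%. Both WT libraries were above both HET libraries for Pdcd1, Tcf7 and Cd28, against 2.42% of all genes, and below them for Tox2 and Cd4, against 83.6%. For Cd4 the order turned, with 53.3 and 80.9% in HET above 27.2 and 41.6% in WT. Tox2 exceeded the CD3 sum in HET, at 543 and 892%, against 74.2 and 95.6% in WT. The ratio of WT to HET means was 6.90 in CPM and 1.61 per CD3 CPM for Pdcd1, and 10.5 and 2.17 for Tcf7. Against the sum of all 16 T cell genes, in which Lck and Cd2 weigh most, both WT libraries were above all KO libraries for 1 member (Pdcd1), against 0.676% of all genes, and below them for 0, against 19.6%. On that scale they were above both HET libraries for 7 members, against 6.58%, and below them for Tox2, against 68.6%. In HET libraries the 4 CD3 genes summed to 8.34 and 14.3 CPM, so these shares are the least precise there.

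**Figure D5:**
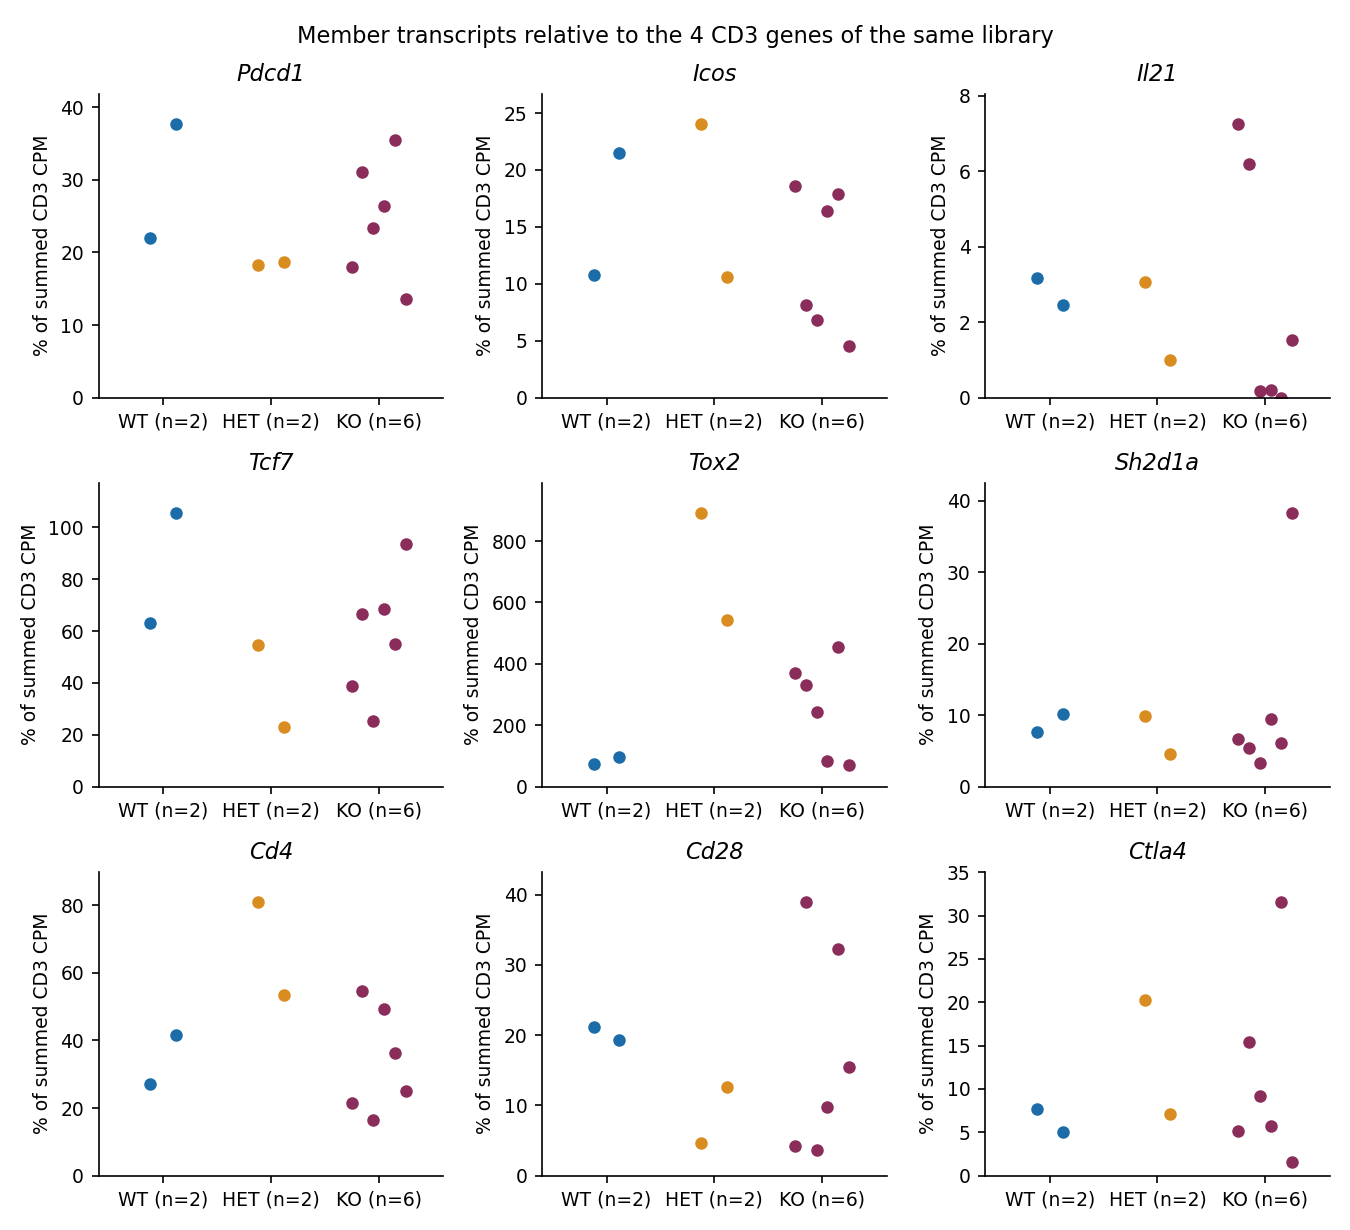
Each member's CPM as a percent of the summed CPM of Cd3e, Cd3d, Cd3g and Cd247 in the same library (y axis, linear from 0) by genotype (x axis), each point a library. WT and KO points overlap in all 9 panels, and Sh2d1a in KO replicate 6 (38.3%) stands above the other KO libraries (up to 9.53%).

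Transcripts of gene lists for other cell types were measured in every library at differing levels. The 10 myeloid genes summed to 487 and 624 CPM in WT, 93.6 and 105 in HET and 82.3 to 809.9 in KO libraries, led by Lyz2 (lysozyme), at 298 and 349 CPM in WT and 22.6 and 35.6 CPM in HET. S100a8 and S100a9, the neutrophil genes of the list, were each at 0 in 4 libraries. The 8 genes of CD8 T and NK cells summed to 9.48 and 14.7 CPM in WT, 4.08 and 4.30 in HET and 5.46 to 21.9 in KO libraries, with Ncr1 at 0 in 9 libraries. The 4 regulatory T cell genes summed to 11.1 and 16.1 CPM in WT, 6.28 and 6.72 in HET and 5.53 to 14.6 in KO libraries. The 5 erythroid genes summed to 45.3 and 57.2 CPM in WT, 35.4 and 38.7 in HET and 55.3 to 96.0 in KO libraries. T cell, myeloid and Y-linked transcripts were all higher in WT than in HET libraries, and their part in the member differences was not tested. Within the libraries with Y-linked transcripts, the median member log2 difference between WT and KO was 1.10. Within the libraries without them, the median between HET and KO was -0.99. Because the members were selected on genotype differences in these same libraries, the signs of these medians add no separate support. No median over all genes is given beside them, so nothing is read from them about Y-linked transcripts.

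Other T follicular helper genes, a list of 16 that the members do not include, covered a wide range, and 9 of them had a mean TPM below that of Pdcd1, at 5.25. Cxcr5, the receptor that draws both T and B cells into follicles, was at 236 and 252 CPM in WT, 247 and 298 in HET and 218 to 279 in KO libraries, and Bcl6, a repressor that germinal center B cells also express, was at 235 and 247, 278 and 293 and 168 to 278 CPM. Btla and Slamf6 were at similar levels but in opposite orders of WT and HET. Btla was at 210 and 216 CPM in WT, 264 and 277 in HET and 186 to 281 in KO libraries. Slamf6 was at 216 and 225 CPM in WT, 176 and 177 in HET and 186 to 259 in KO libraries. Ascl2, an early T follicular helper factor, was at 0 in 6 libraries and Il4 in 1. In both WT libraries 10 of the 16 were above both HET libraries, against 25.4% of all genes tested. These were Maf, Batf, Ascl2, Lef1, Cd40lg, Slamf6, Tigit, Tnfsf8, Il6ra and Sostdc1. Of them 2, Ascl2 and Tigit, were also above all KO libraries, against 4.17%. Ascl2 did not pass the filter behind these shares, and its highest level in any library was 0.389 CPM. Bcl6, Btla, Tox and Cd200 were instead below both HET libraries in both WT libraries. No share over all genes was taken for that direction, so nothing is read from it. For WT against KO 15 passed the filter, with a median log2 difference of 0.06, and the median was 0.31 for WT against HET. No gene of this list was called in any comparison by edgeR or DESeq2, and by edgeR at most 1 was at an unadjusted p under 0.05 in any of them.

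The genes through which B cells meet these signals, a list of 11, were at closer levels in the 3 genotypes. Il21r, the receptor of interleukin 21, was at 388 and 389 CPM in WT, 417 and 423 in HET and 284 to 415 in KO libraries, and Cd86, a ligand of CD28 and CTLA-4, was at 149 and 174, 195 and 229 and 151 to 182 CPM. None of them was called by edgeR or DESeq2, with 0, 3 and 2 at an unadjusted edgeR p under 0.05 for WT against KO, HET against KO and WT against HET. The median log2 difference was 0.02 for WT against KO and 0.00341 for WT against HET, and Icosl was between 87.8 and 100.4 CPM in all libraries but KO replicate 6, where it was at 42.1 CPM. The 10 germinal center B cell genes had medians of -0.10 in both of these comparisons, with none called by edgeR or DESeq2 and none at an unadjusted edgeR p under 0.05.

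The genes whose pattern was most like that of Pdcd1 were ranked by Pearson r of log2(CPM + 1) over the 10 libraries, among 14354 genes. The 8 highest that were not members were Ighv1-78 (r = 0.94), Fbxo32 (0.93), Arhgap9 (0.93), Dmc1 (0.91), Cd3e (0.91), Cd7 (0.90), Gpr155 (0.90) and Agbl1 (0.90). Cd3e is a subunit of the CD3 complex and Cd7 a T and NK cell surface protein, while Ighv1-78 is an immunoglobulin heavy chain variable segment whose reads may be shared with related segments. Ighv1-78 was at 18.6 and 24.8 CPM in WT, 4.30 and 7.01 CPM in HET and 6.52 to 15.6 CPM in KO libraries. Among the members, Tcf7 was closest to Pdcd1 (r = 0.84), followed by Cd28 (0.80), Icos (0.76), Cd4 (0.70), Sh2d1a (0.49), Il21 (0.49), Ctla4 (0.44) and Tox2 (-0.42). Over the 6 KO libraries alone, where genotype does not vary, the values were 0.88 for Cd4, 0.51 for Cd28, 0.42 for Tcf7, 0.39 for Icos, 0.32 for Ctla4, -0.00406 for Il21, -0.03 for Sh2d1a and -0.20 for Tox2, and that for Cd3e was 0.34. By Spearman's rho only 1 of the 8 genes was still among the 8 highest, and over the 6 KO libraries none was.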

How the data were processed

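RNA-seq libraries of sorted germinal center B cells were prepared with SMART-Seq v4 chemistry and sequenced as paired ends by the study. The authors quantified transcripts with Salmon 0.9.1 against Gencode vM17, and deposited estimated counts, which are not normalized, and TPM, which Salmon scales for transcript length and to a fixed total. DESeq2 2.11.40.6 is the version listed in the submitters' processing notes. Of 64019 transcripts, estimated counts were summed for 22380 genes by the symbol and identifier in the names and rounded, and the totals ranged from 26612431 to 41059082 per library.

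Genotype and replicate came from the labels. WT against KO (2 and 6 libraries) and WT plus HET against KO (10 libraries, 1 control group) were fitted on their own libraries, while the 2 comparisons that set HET apart used all 10 libraries, each genotype as its own term. The fits used edgeR 4.0.16 (quasi-likelihood, TMM, filterByExpr, Benjamini-Hochberg, threshold 0.1) in R 4.3.3, limma 3.58.1 and DESeq2 1.42.0. The standard error is the absolute log2 fold change divided by the square root of F. Python 3.11.15 with pandas 2.3.3, numpy 2.4.6, scipy 1.17.1 and matplotlib 3.10.9 was used for the rest. Of the fits, only that of WT against KO with edgeR was tested on simulated counts. Positions came from Gencode vM21, whose identifiers matched those of the members.

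The members and gene lists were chosen with earlier results of these data known. Genes named are the members, of each list up to 4 genes of highest mean TPM, and others (such as Trac, Mef2b, Icosl and Ascl2) chosen after their values were seen, the 8 genes most like Pdcd1 and Zbtb38, and Hnrnpll as a called gene. Alternatives were other size factors, no filter, DESeq2, length-scaled counts, limma on log2(TPM + 1) and log2(TPM + 0.1), a replicate block, other samples in the fit and each library left out. Fits within libraries with or without Y-linked transcripts, and medians without Tox2, were added after seeing the data.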

Additional observations from a re-analysis of the deposited data

Results flagged for a closer look

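In KO replicate 6, Sh2d1a was at 13.4 CPM, and its share of CD3 CPM was 38.3%. Both values lay far from the other 5 KO libraries relative to the whole range. The same library held the highest sum of CD8 T and NK cell genes, 21.9 CPM, which also stood apart from the other KO libraries. KO replicate 1 stood apart with 13088 CPM of germinal center B cell genes and KO replicate 4 with 809.9 CPM of myeloid genes. Of 32 values checked in this way over the 6 KO libraries, chance would flag about 1.6, and groups of 2 libraries could not be checked.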

How the results depend on the processing

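The median member log2 difference kept its sign under every alternative run, between 0.84 and 1.48 for WT against KO, 0.09 and 0.72 for WT plus HET against KO, -1.56 and -0.28 for HET against KO and 1.50 and 2.66 for WT against HET. It was -0.28 and -0.46 for HET against KO, and 1.50 and 2.01 for WT against HET, with limma on log2(TPM + 1) and log2(TPM + 0.1), scales that shrink differences of low genes.

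Counts of called genes moved more. DESeq2 called 6 genes for WT against KO, 18 for WT plus HET against KO, 458 for HET against KO and 125 for WT against HET, where edgeR called 1 in each. Length-scaled counts gave 0 for WT against KO and for WT plus HET against KO. With limma on log2(TPM + 1) both were 0, and with log2(TPM + 0.1) they were 3 and 0, with 6 for HET against KO and 5 for WT against HET. No filter gave 2 for HET against KO. A fit of all 10 libraries gave 2 for WT against KO, and fits of only the compared groups gave 0 for HET against KO and 523 for WT against HET. Fits limited to libraries with or without Y-linked transcripts gave 0 for WT against KO and 0 for HET against KO. Leaving out each library gave 0 to 2 genes for WT against KO, 1 to 2 for WT plus HET against KO, 0 to 5 for HET against KO and 0 to 16 for WT against HET. The cause was not tested.

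Deviations of same-numbered libraries from their group means correlated between -0.01 and 0.13. In groups of 2 libraries these deviations mirror each other, and differently numbered libraries were not compared. The values therefore cannot decide whether replicate numbers pair the libraries. With the replicate number as a replicate block, 6 genes were called for WT against KO, 0 for WT plus HET against KO and 4 for HET against KO. For WT against HET the block called 66 of 14354 genes tested, among them Pdcd1 and Tcf7.

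Under at least 1 alternative, 8 of 9 members changed sign in some comparison. For WT plus HET against KO, 133 of 153 values kept their sign and 7 members changed it, among them Pdcd1 (-0.08) and Tcf7 (-0.13) without WT replicate 2 and Sh2d1a (0.80) without KO replicate 6. The sign was kept by 151 of 153 values for WT against KO, 165 of 170 for HET against KO and 162 of 162 for WT against HET. Il21 between WT and KO went from 1.09 to -0.26 under the block and to 1.79 without KO replicate 1, and Ctla4 was at -0.00391 without WT replicate 1. Groups of 2 WT and 2 HET libraries limit all values given here.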
